A study of Mus musculus with 6 samples.

Results

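The small heat shock proteins Hspb1, Hspb2, Hspb3, Hspb6, Hspb7, Hspb8 and Cryab and their co-chaperone Bag3 were followed in infarcted mouse hearts with and without Runx1 in periostin-expressing cells. The 8 genes were taken by name from the 35498 genes to which the deposited transcripts were assigned, and estimated reads were summed over each gene's transcripts. All 8 were found and all 8 passed the filter on low counts. Poly-A RNA was sequenced from ventricle below the ligature, 7 days after the left anterior descending artery was tied off, in C57BL/6J mice aged 8 to 10 weeks. The knockout group, Runx1_FB_KO, was labelled Postn CreER+/-; Runx1 fl (n = 3; replicate 1 male, replicates 2 and 3 female). The control group, CTL, was labelled Postn CreER+/-; Runx1 WT (n = 3; replicate 1 female, replicates 2 and 3 male). Both groups carried a Cre recombinase that tamoxifen activates and that periostin (Postn) regulatory sequence drives, which is active in activated fibroblasts, and both ate tamoxifen diet from surgery until collection. The labels do not give the number of floxed Runx1 copies, and the RNA came from all cells of the tissue, not only from those that express periostin.

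Small heat shock proteins are chaperones that need no ATP. They share a conserved alpha-crystallin domain, assemble into oligomers and hold unfolding proteins until Hsp70 can refold them or they are broken down. Heart muscle, whose filaments are under constant mechanical load, is among the tissues richest in them. Hspb2, Hspb3 and Hspb7 are largely restricted to striated muscle and are called the muscle forms here. Hspb1, Hspb6, Hspb8 and Cryab occur in many tissues and are called the widely expressed forms, although Hspb6, Hspb8 and Cryab are also abundant in muscle. Bag3 links Hspb8 and Hsp70, and this complex directs damaged filament proteins to autophagy. Mutations in the human genes for Bag3 and alphaB-crystallin cause cardiomyopathy.

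Several of these genes are classical targets of heat shock factor, which binds inverted repeats of a short GAA unit, so the promoter sequences are shown before the values. RefSeq promoter windows (GRCm38.p6, 250 bases before to 50 after a start site) were matched by symbol for 6 of the 8 genes, in 7 windows. Hspb2 and Cryab had no window. The pair GAANNTTC, where N is any base and which reads the same on both strands, was found in windows of 5 of the 6 genes (Hspb1, Hspb3, Hspb6, Hspb8 and Bag3) and in 7.86% of all 32851 windows. A longer form, the pair followed after any 2 bases by a further GAA, contains the pair, was searched on both strands and was in 0 of the 7 windows, against 0.603% of all windows. The Bag3 pair lies at the very end of its window. A GAA after it would fall outside the window and could not be found. The RUNX core TGTGGT, searched on both strands, was in 0 of the 7 and in 16.8% of all windows. Hspb1 and Hspb6 are shown because they lay on opposite sides of 0 in the comparison below. The stretches end before the start of the main protein-coding transcript, and capitals mark GAANNTTC. The Hspb1 stretch is chr5:135887669-135887918, plus strand, and the Hspb6 stretch is chr7:30553051-30553267, plus strand.
Hspb1: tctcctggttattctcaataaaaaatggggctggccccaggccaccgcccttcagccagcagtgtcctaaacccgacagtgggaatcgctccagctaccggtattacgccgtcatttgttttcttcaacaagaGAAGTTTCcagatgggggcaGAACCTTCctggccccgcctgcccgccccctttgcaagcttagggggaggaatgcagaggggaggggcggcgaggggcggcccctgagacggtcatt
Hspb6: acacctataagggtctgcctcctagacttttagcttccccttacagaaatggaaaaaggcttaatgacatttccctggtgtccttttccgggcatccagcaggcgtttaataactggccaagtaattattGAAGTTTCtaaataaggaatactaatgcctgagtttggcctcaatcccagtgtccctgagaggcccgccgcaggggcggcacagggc
In Hspb8 (chr5:116422847-116422870, minus strand) and Bag3 (chr7:128523617-128523632, plus strand) the same octamer lay just downstream of the RefSeq start, and the short stretches around it are shown for comparison. The Bag3 stretch stops at the octamer because its window ends there.
Hspb8: agccaggaGAAGTTTCtaggctcg
Bag3: tgggaccaGAAGTTTC
Hspb1, Hspb6, Hspb8 and Bag3 thus held the identical octamer GAAGTTTC, while Hspb3 held GAATTTTC and the Hspb7 window held none. A match describes the letters of a window and is not evidence that a factor binds there.

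The libraries held 16598561 to 19987279 estimated reads. Runx1, the targeted transcription factor gene, was at 17.5, 10.9 and 67.4 CPM (TMM-scaled CPM) in Runx1_FB_KO replicates 1, 2 and 3, against 96.4, 86.9 and 85.5 CPM in CTL replicates 1, 2 and 3. In TMM-scaled CPM Runx1_FB_KO replicate 3 lay nearer to CTL than the other knockout libraries did, for Runx1 and also for the 8 genes themselves. In TPM this held for Runx1, Hspb1, Hspb3 and Hspb8 only. There knockout replicate 1 was nearest to the CTL mean for Hspb6, Hspb7, Cryab and Bag3, and replicate 2 for Hspb2. Values without it are given beside those with it, but that library was singled out with its values known, so p-values without it are too small to be read as tests. Mitochondrially encoded genes took 10.4% to 24.5% of reads in the knockout and 5.36% to 7.11% in CTL. The summed level of 16 heart muscle markers was 37070 to 131031 CPM in the knockout and 15207 to 19648 CPM in CTL, with all 16 markers higher in every knockout library. The summed level of 12 fibroblast markers was 9945 to 34719 CPM in the knockout and 39774 to 42880 CPM in CTL. Macrophage markers moved with the same libraries, with 9 of 10 below 0 and a median log2 fold change of -1.05, beside -1.11 for the fibroblast markers, and their part in the Hspb1 level was not tested. In whole tissue, fewer cells of a type and less RNA per cell cannot be told apart.

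Of the genes, 7 had higher mean levels in the knockout and Hspb1 had a lower one, but 0 of the 8 passed the threshold (edgeR quasi-likelihood test, Benjamini-Hochberg adjusted p under 0.05 over 14237 genes), as did 0% of all genes tested. At an unadjusted p under 0.05, 7 members were higher and 0 lower, where 19.3% of all genes were higher and 13.1% lower. All 3 knockout values lay above all 3 CTL values for 6 members (Hspb3, Hspb6, Hspb7, Hspb8, Cryab and Bag3), where 20.2% of all genes did so. They lay below for 1 member, Hspb1, where 18.8% of all genes did so. The median log2 fold change of the 8 members was 1.04, beside -0.06 for all genes tested. Without Runx1_FB_KO replicate 3, 7 members were higher and 0 lower past the edgeR threshold, where 25.1% of all genes were higher and 22.5% lower. The edgeR adjusted p of the 8 members was 8.55e-05 to 0.0832 without that library, and 0.178 to 0.541 without any 1 of the 5 other libraries. DESeq2 on all 6 libraries called the same direction for 7 members, where it called 10.4% of all genes higher and 3.63% lower. The same knockout libraries held more mitochondrial reads and more heart muscle marker RNA, and the part of these in the result was not tested.

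**Figure D1:**
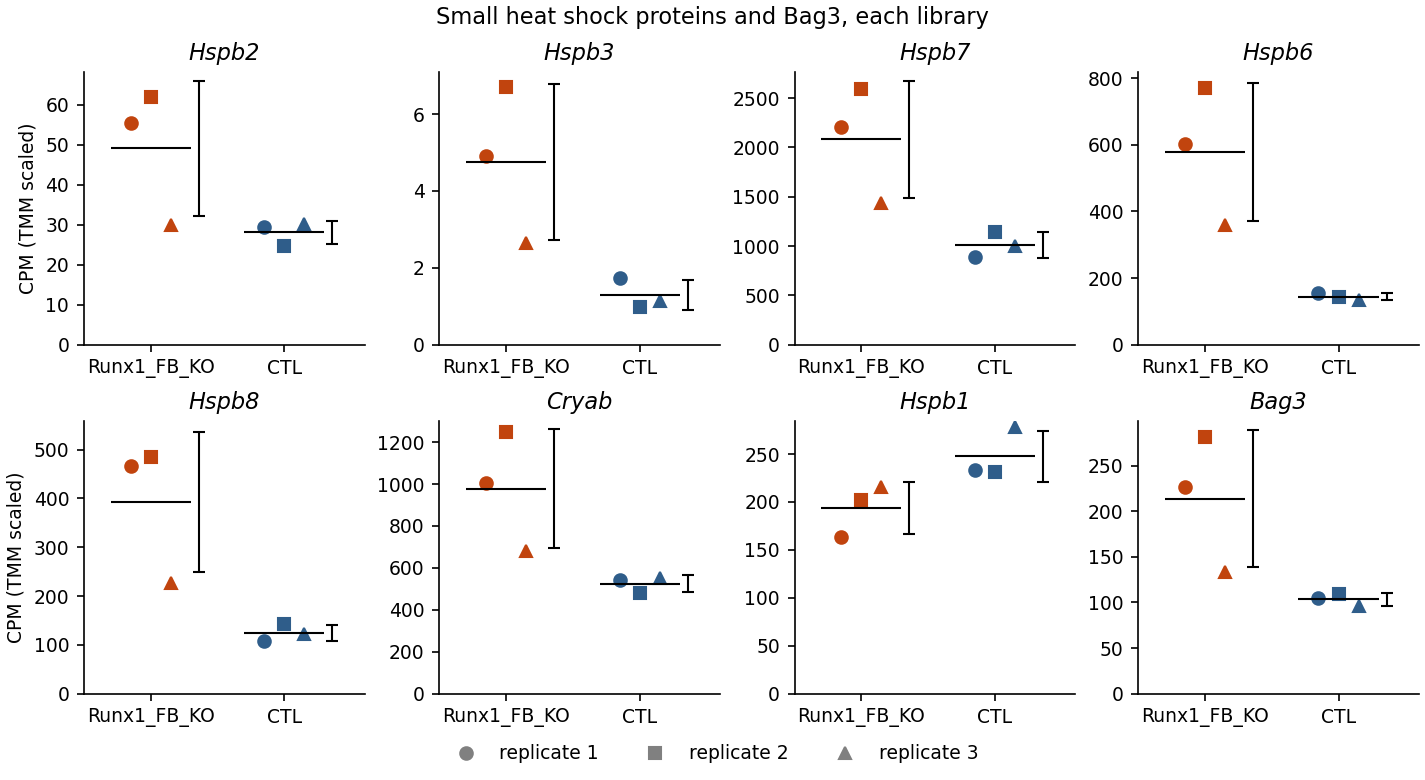
Level of each gene in CPM after TMM scaling (y axis, from 0) in the 3 Runx1_FB_KO and 3 CTL libraries; symbols mark the replicate number, horizontal lines the group mean and the bars beside them ± 1 SD. Knockout replicate 3 is the knockout point nearest to CTL in every panel, and the knockout points lie below CTL for Hspb1 alone.

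Among the widely expressed forms, Hspb6 showed the largest difference of all 8 members. Hspb6 (Hsp20), a substrate of cAMP-dependent protein kinase that protects heart muscle cells in mice, was at 604, 771 and 359 CPM in Runx1_FB_KO replicates 1, 2 and 3, against 154, 142 and 135 CPM in CTL. The lowest knockout library, replicate 3, was still far above the highest CTL library. The means were 578 ± 207 CPM in the knockout and 144 ± 9.65 CPM in CTL (SD, n = 3 each), a log2 fold change of 2.004 (SE 0.31, edgeR adjusted p = 0.0682). Leaving out knockout replicate 3 gave 2.30. Nearly all of its TPM, 98.1% to 99.4% in each library, came from its only protein-coding transcript.

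Hspb8 (Hsp22), the small heat shock protein that binds Bag3, was at 467, 484 and 226 CPM in the knockout, against 109, 142 and 122 CPM in CTL. The groups did not overlap, and knockout replicate 3 was far below the other 2 knockout libraries. The knockout to CTL difference was 1.66 in log2 (SE 0.32, edgeR adjusted p = 0.0682), and 1.98 without that library. Hspb8 thus had the largest difference after Hspb6 and Hspb3.

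Cryab, which encodes alphaB-crystallin, a chaperone of desmin filaments and of the lens, was at 1003, 1247 and 683 CPM in the knockout, against 541, 480 and 554 CPM in CTL. The knockout to CTL difference was 0.90 in log2 (SE 0.29, edgeR adjusted p = 0.102), and 1.14 without Runx1_FB_KO replicate 3. On the TPM scale, which is set by the total over all transcripts including mitochondrial ones, Cryab overlapped between the groups, at 1397, 1791 and 1643 TPM in the knockout and 1490, 1311 and 1571 TPM in CTL. The transcript Cryab-205 held 94.4%, 93.0% and 90.1% of Cryab TPM in the knockout and 87.7%, 88.6% and 88.0% in CTL, an allocation between transcripts that share most of their sequence.

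Hspb1 (Hsp25 in mice, Hsp27 in humans), which guards actin filaments and is induced by stress in many cell types, was the exception. It was at 163, 202 and 216 CPM in the knockout, against 233, 231 and 278 CPM in CTL. The knockout libraries all lay below CTL, but replicate 3 was close to the lowest CTL library. The knockout to CTL difference was -0.36 in log2 (SE 0.19, edgeR adjusted p = 0.230), and -0.40 without Runx1_FB_KO replicate 3. The gap was wider in TPM, at 235, 307 and 546 TPM in the knockout (mean 363). CTL was at 673, 673 and 807 TPM (mean 718), and the groups did not overlap. With library size alone in place of TMM scaling the Hspb1 log2 fold change was -0.80, beside a median of -0.52 over all genes.

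Of the muscle forms, Hspb7 (cvHsp), which binds filamin C and is needed for thin filament assembly in the mouse heart, had the most reads of the 8 genes. It was at 2211, 2596 and 1433 CPM in the knockout, against 886, 1141 and 1005 CPM in CTL. The groups did not overlap in CPM, and the knockout to CTL difference was 1.04 in log2 (SE 0.33, edgeR adjusted p = 0.0978). With knockout replicate 3 left out it was 1.29. In TPM the groups overlapped, at 724, 851 and 819 TPM in the knockout and 575, 746 and 670 TPM in CTL.

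Hspb3, which forms a complex with Hspb2 during muscle differentiation, was the rarest member, with 75, 86 and 52 reads in the knockout and 39, 22 and 23 reads in CTL. These counts gave 4.91, 6.71 and 2.65 CPM in the knockout and 1.73, 0.98 and 1.14 CPM in CTL. The groups did not overlap, and the knockout to CTL difference was 1.88 in log2 (SE 0.46, edgeR adjusted p = 0.0709), the largest standard error of the 8. It was 2.21 with knockout replicate 3 left out. Skeletal muscle also expresses Hspb3, and its 12 listed markers summed to 22.8 to 42.6 CPM in the knockout and 34.0 to 63.3 CPM in CTL, more than Hspb3 itself. The knockout sum came largely from Mybpc2, at 19.0, 26.1 and 30.2 CPM, against 12.1, 23.7 and 9.45 CPM in CTL. Of the 7 skeletal markers tested, 5 had log2 fold changes below 0 and 2 above, with a median of -1.15. Tnnt3, a skeletal troponin, was at 1.57, 2.97 and 6.69 CPM in the knockout, against 14.5, 14.6 and 17.8 CPM in CTL. Myh1, a skeletal myosin, was at 0, 1.56 and 0.20 CPM in the knockout, against 0.04, 7.01 and 0.45 CPM in CTL. The part of these markers in the Hspb3 level was not tested.

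Hspb2, also known as a binding protein of myotonic dystrophy kinase, was at 55.5, 61.9 and 29.97 CPM in the knockout, against 29.3, 24.7 and 30.1 CPM in CTL. Knockout replicate 3 lay within the CTL range, and in CPM Hspb2 was the only member whose groups overlapped. In TPM the direction turned, with 93.5, 109 and 94.4 TPM in the knockout (mean 99.0) and 109, 91.4 and 114 TPM in CTL (mean 105), and the groups overlapped. With library size alone the Hspb2 log2 fold change was 0.27. The knockout to CTL difference was 0.81 in log2 (SE 0.27, edgeR adjusted p = 0.112), and 1.11 without that library. Its 2 transcripts were not given equal shares. Hspb2-202 held 6.1%, 6.3% and 19.2% of Hspb2 TPM in Runx1_FB_KO replicates 1, 2 and 3, against 23.3%, 23.2% and 23.7% in CTL, on 30.0 to 71.7 reads in the knockout and 83.1 to 98.7 reads in CTL. Hspb2 (GRCm38 chromosome 9, 50751078 to 50752354, minus strand) and Cryab (chromosome 9, 50751325 to 50756636, plus strand) overlap by 1030 bases in the annotation. Whether strand was used in counting is not given in the sources used here, so reads in that stretch cannot be told apart between both genes. The most used Cryab transcript, Cryab-205, starts at 50753020, outside Hspb2.

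Bag3 (chromosome 7, 128523616 to 128546981, plus strand) has a single annotated transcript and was at 227, 282 and 133 CPM in the knockout, against 105, 110 and 96.0 CPM in CTL. All knockout libraries lay above CTL, with replicate 3 closest. The knockout to CTL difference was 1.05 in log2 (SE 0.28, edgeR adjusted p = 0.0801), and 1.34 without Runx1_FB_KO replicate 3. Its partner Hspb8 had 2.89, 2.40 and 2.37 times the TPM of Bag3 in the knockout, against 1.45, 1.82 and 1.79 times in CTL. Hspb6, which also binds Bag3, had 5.38, 5.55 and 5.42 times the TPM of Bag3 in the knockout, against 2.98, 2.61 and 2.86 times in CTL. Both ratios separated the groups, knockout replicate 3 included.

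**Figure D2:**
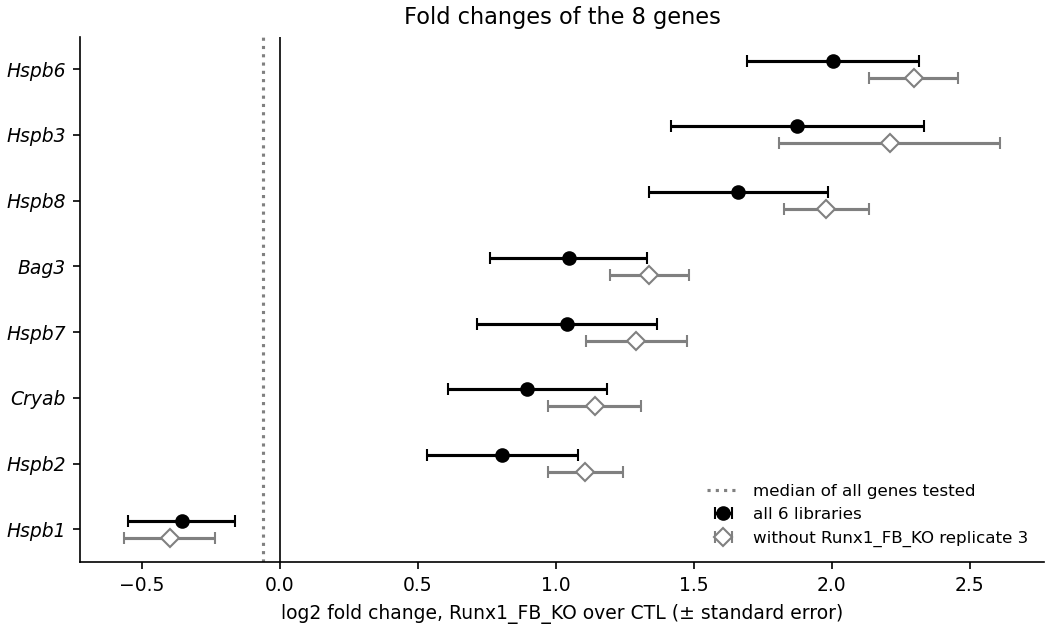
Log2 fold change of each gene, Runx1_FB_KO over CTL (x axis, ± standard error, edgeR), with all 6 libraries (filled circles) and without Runx1_FB_KO replicate 3 (open diamonds); the dotted line is the median of all genes tested, -0.06. Hspb6 lies farthest to the right at 2.004 and Hspb1 alone lies left of 0, at -0.36.

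Levels can be compared between genes in TPM, which is per transcript length. In the knockout the order of mean TPM was Cryab (1610), Hspb7 (798), Hspb6 (496), Hspb1 (363), Hspb8 (231), Hspb2 (99.0), Bag3 (90.8) and Hspb3 (8.37). In CTL it was Cryab (1458), Hspb1 (718), Hspb7 (663), Hspb6 (215), Hspb8 (129), Hspb2 (105), Bag3 (76.4) and Hspb3 (3.95). Neighbours overlapped in range for Hspb6 with Hspb1, Hspb1 with Hspb8 and Hspb2 with Bag3 in the knockout, and for Hspb1 with Hspb7 and Hspb8 with Hspb2 in CTL. Hspb1 thus lay level with Hspb7 in CTL, and below Hspb7 in the knockout without overlap.

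The muscle forms together did not take a clearly different share of small heat shock protein mRNA. They held 26.2%, 24.9% and 24.4% of the summed TPM of the 7 small heat shock genes in the knockout, against 21.6%, 26.4% and 22.5% in CTL, and the groups overlapped. Most of this share was Hspb7, with a mean of 22.2% in the knockout and 20.2% in CTL. Hspb2 held 2.76% and 3.18%, and Hspb3 held 0.23% and 0.12%, so the sum says little about these genes. The log2 ratio of muscle to widely expressed forms was -1.57 ± 0.07 in the knockout and -1.71 ± 0.20 in CTL (SD, n = 3 each), a difference of 0.14. The members were chosen with results known, so this carries no test. The difference was 0.06 without CTL replicate 1, 0.25 without CTL replicate 2 and 0.0017 with CPM in place of TPM. Counting Cryab and Hspb6 with the muscle forms made it 0.83.

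The make-up differed for 4 single genes, 3 of them widely expressed forms. Hspb1 held 7.47%, 7.89% and 14.5% of the summed TPM in the knockout, against 21.1%, 21.2% and 23.1% in CTL. Hspb6 held 14.2%, 14.8% and 12.3% in the knockout, against 7.14%, 6.61% and 5.88% in CTL. Hspb8 held 7.66%, 6.40% and 5.37% in the knockout, against 3.49%, 4.61% and 3.67% in CTL. The muscle form Hspb3 held 0.239%, 0.271% and 0.186% in the knockout, against 0.165%, 0.0932% and 0.103% in CTL. None of these 4 shares overlapped between the groups. A background for shares of a family sum was not computed. In CPM 20.2% of all genes lay above CTL without overlap and 18.8% below, and 38.6% of read ratios between 2 genes did not overlap. The shares are parts of 1 sum, so a smaller Hspb1 share by itself raises the others. Cryab held 44.6% ± 1.26 in the knockout and 44.3% ± 2.79 in CTL, and Hspb7 held 22.2% ± 0.72 and 20.2% ± 2.86, with overlapping ranges for both.

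**Figure D3:**
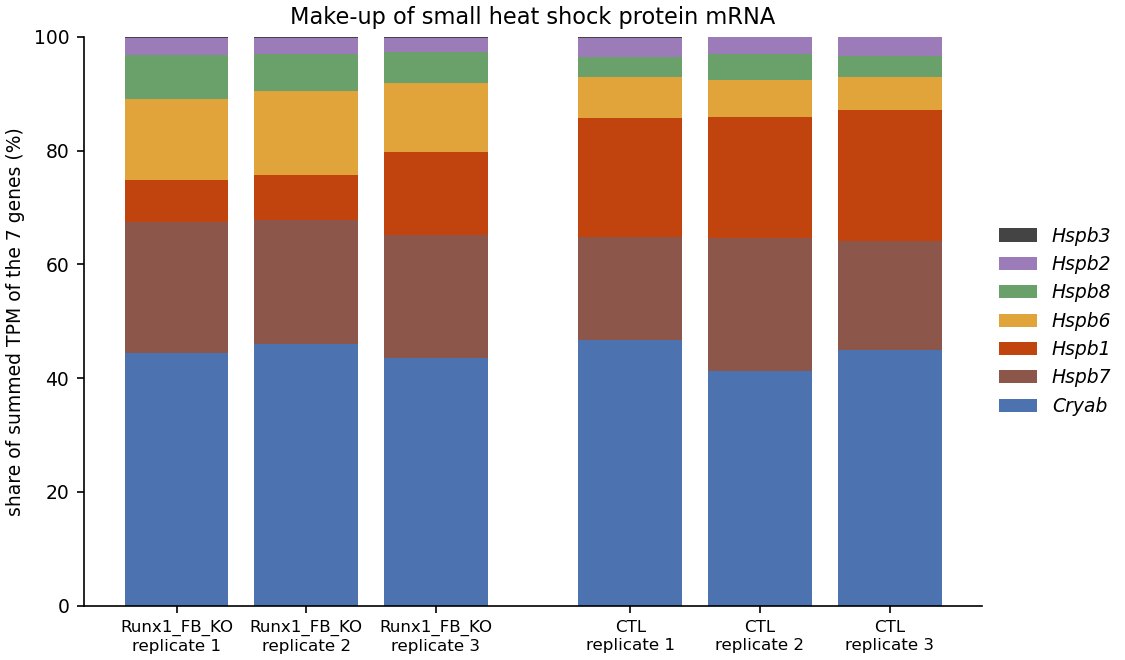
Share of the summed TPM of the 7 small heat shock genes held by each gene (y axis, %), 1 bar per library, Runx1_FB_KO replicates on the left and CTL replicates on the right. Hspb1 narrows to 7.47% to 14.5% in the knockout, against 21.1% to 23.1% in CTL, while Hspb6 and Hspb8 widen; Hspb3, at most 0.27%, is too thin to see.

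Ratios of reads between members within a library do not depend on how libraries are scaled. Of the 28 pairs, 18 had ratios that did not overlap between the groups, as did 38.6% of all pairs among the 13974 tested genes with reads in every library. Hspb1 was lower in the knockout relative to each of the 7 other members, in every knockout library. The TPM of Hspb1 was 0.52, 0.53 and 1.18 times that of Hspb6 in the knockout, against 2.95, 3.20 and 3.92 times in CTL. Hspb6 was higher relative to Cryab, at 0.32, 0.32 and 0.28 times its TPM in the knockout, against 0.15, 0.16 and 0.13 times in CTL. Hspb2, Hspb7, Cryab and Bag3 kept overlapping ratios to each other, and so did Hspb3, Hspb6 and Hspb8. The ratio of Hspb3 to Hspb7 overlapped as well.

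Set against heart muscle RNA, the picture was lower rather than higher for most members. The markers lay above the CTL mean by 2.27 in log2 on average over the knockout, while the median of all genes tested was -0.06. A gene at that median would also lie below CTL on this scale. The share of all genes that do so was not counted, so a place below CTL cannot be called particular to these members. The mean log2 CPM of the 16 heart muscle markers exceeded the CTL mean by 2.65, 2.95 and 1.20 in Runx1_FB_KO replicates 1, 2 and 3. This mean covers markers that differed widely. Among the 7 also in the sarcomere list below, log2 fold changes ran from 1.33 (Mybpc3) to 3.23 (Myh6). Hspb6, Hspb3 and Hspb8, at 2.004, 1.88 and 1.66, lay within that range. Each lay below 2.92, the median log2 fold change of the 16 markers. Relative to these markers Hspb1 was at -3.25, -3.24 and -1.40 on the log2 scale, Hspb2 at -1.66, -1.80 and -1.10, and Cryab at -1.71, -1.70 and -0.82. Hspb7 was at -1.51, -1.58 and -0.69, Bag3 at -1.52, -1.50 and -0.84, and Hspb8 at -0.73, -0.97 and -0.33, and all 6 lay below the CTL libraries. Hspb6, at -0.58, -0.52 and 0.11, and Hspb3, at -0.76, -0.62 and -0.18, overlapped with CTL. The CTL libraries ranged over -0.23 to 0.12 for Hspb6 and -0.54 to 0.45 for Hspb3. The overlap came from Runx1_FB_KO replicate 3 alone, and replicates 1 and 2 lay below all CTL libraries for both genes. Hspb1 lay farthest from the muscle markers. Smooth muscle cells and pericytes also express some of these genes, and their 10 markers did not move together. Acta2, a contractile marker, was at 147, 140 and 617 CPM in the knockout, against 958, 443 and 637 CPM in CTL. Abcc9, a pericyte marker that heart muscle also expresses, was at 445, 444 and 119.7 CPM in the knockout, against 67.2, 84.6 and 71.9 CPM in CTL. Their part in the result was not tested.

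**Figure D4:**
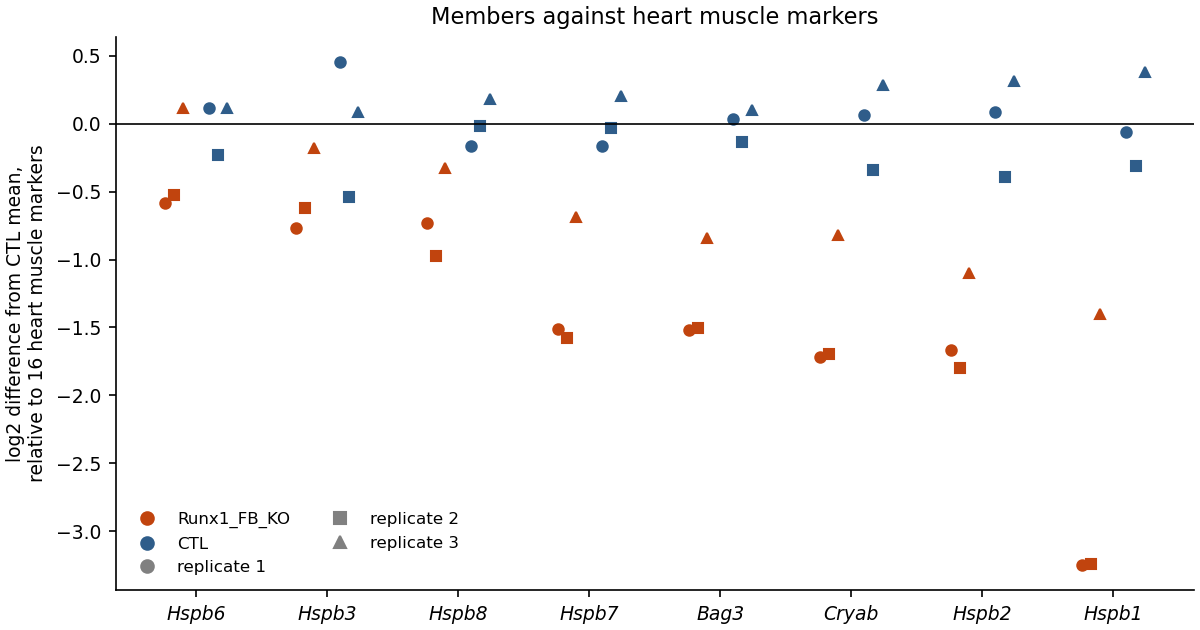
Log2 CPM of each gene minus the mean log2 CPM of 16 heart muscle markers, with the CTL mean set to 0 (y axis), for the 3 Runx1_FB_KO and 3 CTL libraries; symbols mark the replicate number. Knockout points lie below all CTL points for 6 genes and, through replicate 3 alone, overlap with CTL for Hspb6 and Hspb3. The share of all genes that would lie below CTL on this scale was not counted.

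Of 26 genes of the Hsp70 and Hsp90 systems and heat shock factors, 0 passed over all genes tested, 20 had log2 fold changes above 0 and 6 below, with a median of 0.45 (all genes -0.06). All knockout values lay above CTL for 13 of them and below for 2, where 20.2% of all genes lay above and 18.8% below. Fkbp4, a co-chaperone of Hsp90, was at 219 ± 121 CPM in the knockout and 52.7 ± 4.81 CPM in CTL, and the Hsp70 partners Dnaja4 and Dnajb5 had log2 fold changes of 1.37 and 1.26. The stress-inducible Hsp70 genes were on the other side, with Hspa1b at 5.76, 4.92 and 11.7 CPM in the knockout, against 14.98, 12.5 and 17.7 CPM in CTL (log2 fold change -1.004, edgeR adjusted p = 0.120). Hspa1a had -0.47, and Dnajb1, another inducible partner of Hsp70, had -0.25 with overlapping groups. Hspa1a and Hspa1b are near-identical copies, so reads may have been divided between them arbitrarily. Without Runx1_FB_KO replicate 3, 16 genes of the list passed as higher and 1, Hspa1b (log2 fold change -1.45), as lower, where 25.1% of all genes passed as higher and 22.5% as lower.

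Of 17 genes listed for the autophagy in which Bag3 takes part, general autophagy genes among them, 0 passed, 12 were above 0 and 5 below, with a median of 0.47. Optn and Nbr1, autophagy receptors, had log2 fold changes of 1.66 and 0.72, and Wipi1, a gene of autophagosome formation, had 0.59. On TPM all 3 overlapped between the groups, and the means turned direction for Nbr1 (40.9 in the knockout, 44.1 in CTL) and Wipi1 (62.2 and 69.1). Optn and Wipi1 also overlapped with library size alone. Ilk, an integrin-linked scaffold, and the membrane tethering genes Vps16 and Vps18 had -0.48, -0.36 and -0.33, and their groups did not overlap. Among the other 5 Bag genes, Bag2, Bag6 and Bag1 had 0.84, 0.55 and 0.62, and Bag5 and Bag4 had -0.18 and -0.12. On TPM, Bag2, Bag6 and Bag1 overlapped between the groups, and the means turned direction for Bag6 (67.6 in the knockout, 75.1 in CTL) and Bag1 (157 and 174). With library size alone Bag6 and Bag1 overlapped too. Bag3, at 1.05 (SE 0.28), thus had the largest log2 fold change of the Bag family, but it lay close to Bag2 (SE 0.18). Without Runx1_FB_KO replicate 3, 9 autophagy genes passed as higher and 1 as lower, and 3 of the 5 other Bag genes as higher, where 25.1% of all genes passed as higher and 22.5% as lower.

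Of 12 sarcomere and intermediate filament genes, many of whose products these chaperones bind, 0 passed, 11 were above 0 and 1 below, with a median of 1.69. Ttn (titin), Ldb3 (a Z-disc protein) and Csrp3 (muscle LIM protein) had log2 fold changes of 2.10, 2.06 and 1.64. Des, the desmin filament that Cryab protects, stood apart at 2164, 2370 and 2290 CPM in the knockout, against 2052, 2835 and 2809 CPM in CTL, with overlapping groups and a log2 fold change of -0.17 (SE 0.31). On TPM every knockout library lay below CTL for Des. The list shares 7 genes with the heart muscle markers. Without Runx1_FB_KO replicate 3, 11 of the 12 passed as higher, where 25.1% of all genes did so.

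**Figure D5:**
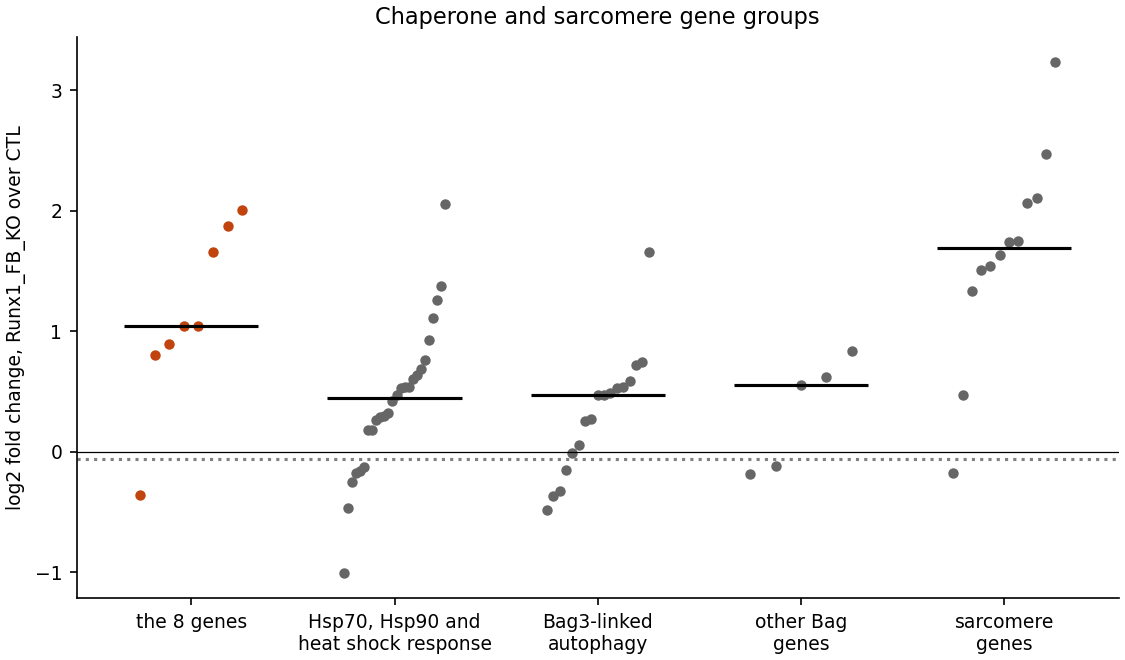
Log2 fold change, Runx1_FB_KO over CTL (y axis), of the 8 genes and of 4 related gene lists; each point is 1 gene, sorted within its list, the bar is the list median and the dotted line the median of all genes tested. The medians are 1.04, 0.45, 0.47, 0.55 and 1.69 from left to right.

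The other small heat shock genes were barely present. Cryaa, the alphaA-crystallin of the lens, Hspb9 and Odf1, both of testis, had mean levels of 0.15, 0.13 and 0.017 CPM in the knockout and 0.28, 0.45 and 0 CPM in CTL, and did not pass the filter on low counts.

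The genes whose profile over the 6 libraries was most like that of a member were found by the root mean square distance of log2 CPM centred on the CTL mean, among 10205 genes with a mean log2 CPM of at least 3. For Hspb7 they were Slain2, Ppp1cb and Prkar2a, at distances of 0.034, 0.044 and 0.050. For Hspb1 they were Atn1, Atxn10 and Klhl26 (0.045, 0.050 and 0.051), and for Bag3 they were Polr2m, Lonp2 and Rab28 (0.039, 0.049 and 0.052). No member was among these 9 nearest genes.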

How the data were processed

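Salmon 1.5.2, DESeq2 1.44.0 and the mouse build mm10 (GRCm38) are named per the submitters' processing notes. The authors deposited 1 table per library with estimated counts, TPM and an effective length for each of 116546 transcripts. Of these, 115977 matched GENCODE M21 (GRCm38) by identifier without version. The annotation release of the quantification is not given in the sources used here. Unmatched transcripts, with 0.078% to 0.102% of reads, were not used. For each gene the estimated counts were added up and rounded to whole numbers. The deposited TPM was summed per gene and used to compare genes with each other. Genes were filtered with filterByExpr, scaled by TMM (factors 0.732 to 1.214) and tested with edgeR 4.0.16 quasi-likelihood on genotype alone, Benjamini-Hochberg adjusted over all genes. Standard errors were derived from the log2 fold change and its F statistic. Log2 CPM used a prior count of 2. The test was checked on simulated data. The labels do not say that replicates came from separate mice, so p-values measure the spread between these samples.

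The members, lists and classes were chosen with earlier results of these data known. The named genes were the 8 members, Runx1, the other small heat shock genes, the 3 genes with the smallest p in each direction of each related list, and the 3 nearest profiles of Hspb7, Hspb1 and Bag3. The alternatives tried were a sex covariate, the replicate block, RLE, upper quartile and library size scaling, 2 other filters, an effective length offset, omission of mitochondrial genes, protein-coding transcripts only, DESeq2 1.42.0, limma-voom (limma 3.58.1), leaving out each library and, chosen after seeing the data, DESeq2 on the filtered genes. Deviations from group means correlated at -0.05, 0.11 and 0.08 for replicates 1, 2 and 3, so the numbers were not taken to pair the libraries.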

Additional observations from a re-analysis of the deposited data

How the results depend on the processing

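Over 19 alternatives for each of the 8 members (152 values), 0 turned direction and 0 lost a call, since none was called with all 6 libraries. The call was gained in 23. None of these alternatives compared the members on TPM. There the Hspb2 means turned direction (99.0 in the knockout, 105 in CTL), and Hspb2, Hspb7 and Cryab overlapped between the groups. DESeq2 gave log2 fold changes of 0.84 for Hspb2, 1.92 for Hspb3, 2.04 for Hspb6, 1.08 for Hspb7, 1.70 for Hspb8, 0.93 for Cryab and 1.08 for Bag3, each called. DESeq2 on the filtered genes gave 0.84, 1.91, 2.04, 1.08, 1.70, 0.93 and 1.08, each called. Without a filter on low counts edgeR called Hspb6 (1.996) and Hspb8 (1.65). Leaving out each library in turn gave 0.61 to 1.11 for Hspb2, 1.55 to 2.21 for Hspb3, 1.74 to 2.30 for Hspb6, 0.85 to 1.29 for Hspb7, 1.49 to 1.98 for Hspb8, 0.69 to 1.14 for Cryab, 0.80 to 1.34 for Bag3 and -0.40 to -0.24 for Hspb1, and among these fits the 7 calls came only without Runx1_FB_KO replicate 3.

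All genes called numbered 889 of 20211 tested without a filter and 1 of 13665 with protein-coding transcripts only. They numbered 2824 of 20191 with DESeq2 and 2995 of 14227 with DESeq2 on the filtered genes. With a library left out they numbered 0 to 6947, the last of 14609 tested without Runx1_FB_KO replicate 3. Of the 26 genes in the Hsp70 and Hsp90 list, those called were 3 without a filter, 8 with DESeq2, 9 with DESeq2 on the filtered genes and 0 to 17 with a library left out. Of the 17 in the Bag3 autophagy list they were 5 with either DESeq2 fit and 0 to 10 with a library left out. Of the 5 other Bag genes they were 1 without a filter, 1 with either DESeq2 fit and 0 to 3 with a library left out. Of the 12 in the sarcomere list they were 7 without a filter, 11 with either DESeq2 fit and 0 to 11 with a library left out. The cause was not tested.

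With the replicate number as a block edgeR called 0 genes, and the log2 fold changes were -0.36 for Hspb1, 0.75 for Hspb2, 1.82 for Hspb3, 1.94 for Hspb6, 1.01 for Hspb7, 1.59 for Hspb8, 0.86 for Cryab and 0.98 for Bag3. Not every library correlated best with its own number. Library size alone moved the median of all genes to -0.52 and gave 0.27 for Hspb2, 0.37 for Cryab, 0.52 for Hspb7, 0.51 for Bag3 and -0.80 for Hspb1. Relative to that median they were 0.79, 0.89, 1.04, 1.03 and -0.28, beside 0.87, 0.96, 1.10, 1.11 and -0.29 under TMM. The difference of the muscle to wide log2 ratio was 0.83 with Cryab and Hspb6 counted as muscle forms. Depth limits Hspb3 most, with 22 to 86 reads.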
